A study of Mus musculus with 2 samples.

Results

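The 10 microRNA genes described here are known chiefly from liver and from lining epithelia, and they were read in a tissue made mostly of muscle fibres. They are Mir122 of hepatocytes, Mir192, Mir194-1 and Mir194-2 of gut, liver and kidney epithelium, Mir203 and Mir205 of skin epithelium, and Mir200a, Mir200b, Mir200c and Mir141 of epithelia in general. They were chosen by their GENCODE M21 symbols among the 2202 microRNA genes counted, with earlier results of the same counts known, among them the difference of Mir122 between the replicates. The RNA was total RNA, size-selected below 30 nt, of gastrocnemius, the large calf muscle, from female B6CASTF1/J mice aged 14 days, a cross of C57BL/6J and CAST/EiJ. There was 1 group of 2 biological replicates, with no treatment. Per the labels, replicate 1 came from a biosample named for 3 females and replicate 2 from one named for a single animal. Both carry the same donor identifier, so the spread between them may not be that of unrelated animals.

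A microRNA is cut from a hairpin transcript and guides repression of messenger RNAs that pair with its seed, the bases near its 5′ end. miR-122 is the dominant microRNA of hepatocytes and is known for its part in lipid metabolism there. The miR-200 family holds epithelial cells in their state by repressing the transcription factors Zeb1 and Zeb2, and miR-203 restrains the proliferation of skin stem cells. miR-205 is known from stratified epithelium, and miR-192, miR-194 and miR-215 from gut and kidney epithelium.

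The mature sequences show which members could act on the same targets and which could be confused in counting. Of the 10 members, 9 matched the RefSeq microRNA table (GRCm38.p6), and Mir122 did not. The sequences below run 5′ to 3′, with the seed (bases 2 to 8) in capitals, and add miR-215 and miR-429, the partners of the members in a locus and a seed group.
miR-192-5p: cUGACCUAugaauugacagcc
miR-215-5p: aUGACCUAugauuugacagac
miR-194-5p: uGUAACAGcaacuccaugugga
miR-203-3p: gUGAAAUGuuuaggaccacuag
miR-205-5p: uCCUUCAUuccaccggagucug
miR-200b-3p: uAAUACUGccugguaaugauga
miR-200c-3p: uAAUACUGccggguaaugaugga
miR-429-3p: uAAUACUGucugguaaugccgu
miR-200a-3p: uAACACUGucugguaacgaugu
miR-141-3p: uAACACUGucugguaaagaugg

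The miR-200 family fell into a pair of seed groups, miR-200b, miR-200c and miR-429 with AAUACUG and miR-200a and miR-141 with AACACUG. In the table of 1679 mature names, 3 carried AAUACUG and 2 carried AACACUG, so no microRNA outside the family had either. Counted from the 5′ end, miR-200c differs from miR-200b by U11G and A22G and is 1 base longer, and miR-141 differs from miR-200a by C17A and U22G. miR-192 and miR-215 shared UGACCUA, which was found in no other name. The seeds of miR-194-5p, miR-203-3p and miR-205-5p were each found under a single name.

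miR-194-5p is encoded with the same 22 bases by Mir194-1 and Mir194-2, whose partner arms differ at 4 of 22 positions. Those arms are shown because only a read reaching outside the shared 22 bases can be placed at 1 of the 2 genes.
miR-194-1-3p: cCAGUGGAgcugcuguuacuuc
miR-194-2-3p: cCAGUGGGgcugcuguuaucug
A read that aligns to several places appears in the deposited files only in a total of multiply aligned reads, so the read counts of both Mir194 genes are lower bounds for their microRNA. The 7 other members with a sequence shared at most 17 bases with any of the other hairpins in a table of 1005. That longest stretch was between Mir200a and Mir141.

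The members lie at 7 loci on mm10. Mir122 stands at chromosome 18, 65248861 to 65248926, in an exon of the long noncoding gene AC157910.3. Mir194-2 (chromosome 19, 6264643 to 6264728) and Mir192 (6264844 to 6264932) are 115 bases apart and overlap no other annotated gene. Mir194-1 (chromosome 1, 185313319 to 185313385) lies in an intron of 2010103J01Rik, beside Mir215. Mir203 (chromosome 12, 112130880 to 112130955) overlaps no other annotated gene, and Mir205 (chromosome 1, 193507463 to 193507530) lies in an exon of the long noncoding gene 4631405K08Rik. Mir200b (chromosome 4, 156055681 to 156055750) and Mir200a (156054896 to 156054985) are 695 bases apart in an intron of Ttll10, with Mir429 downstream. Mir200c (chromosome 6, 124718322 to 124718390) and Mir141 (124717914 to 124717985) are 336 bases apart in an intron of Gm15884, and Mir141 also overlaps an exon of Gm29008.

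Reads assigned to microRNA genes numbered 2672454 in replicate 1 and 4292012 in replicate 2. Levels are CPM, the count divided by the total of assigned reads and scaled so that every library has the same sum. Thus 1 read was worth 0.374 CPM in replicate 1 and 0.233 CPM in replicate 2, and 0 reads allowed up to 1.12 CPM and 0.699 CPM, taking 3 reads as the limit. A read covers a whole small RNA, so no division by gene length applies, although adapter ligation is known to favour some RNA ends and levels of different microRNAs are compared as reads only. Each count pools both arms of a hairpin, as far as their reads align to a single place. For the Mir194 genes this leaves out reads within the 22 bases they share. Multiply aligned reads, 52.7% of all reads in replicate 1 and 52.4% in replicate 2, counted for no gene. Intervals are 95% exact (Clopper-Pearson) counting intervals and cover counting error only. As a check of the tissue, Mir206, a gene of skeletal muscle, stood at 95105 CPM in replicate 1 and 84695 CPM in replicate 2. The 9 listed muscle genes, 8 of them at 1 CPM or more in both replicates, differed in both directions, with 3 counting intervals of the ratio of replicate 1 over replicate 2 above 1 and 2 below. Mir1a-2 had a ratio of 1.44 (1.30 to 1.61) and Mir486 of 1.20 (1.12 to 1.27), while the slow-fibre genes Mir208b and Mir499 had 0.55 (0.468 to 0.640) and 0.76 (0.687 to 0.841). The Mir1a and Mir133a genes come in numbered copies, and reads that align to more than 1 copy are left out. Their levels and ratios therefore describe only the reads placed at a single gene.

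The 10 genes together held a very small part of the library. They had 916 reads in replicate 1, or 0.0343% of assigned reads (95% interval 0.0321 to 0.0366), and 605 in replicate 2, or 0.0141% (0.0130 to 0.0153). The mean was 0.0242% ± 0.0143 (SD, n = 2). At the threshold of 1 CPM in both replicates 7 of the 10 were detected, and across all 2202 genes 16.7% were. The median level of those 7 was 13.0 CPM, against 81.5 CPM over the 367 genes past the same threshold. In whole tissue, fewer cells of a type and less RNA per cell cannot be told apart, and the counts do not show which cells held these microRNAs.

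**Figure D1:**
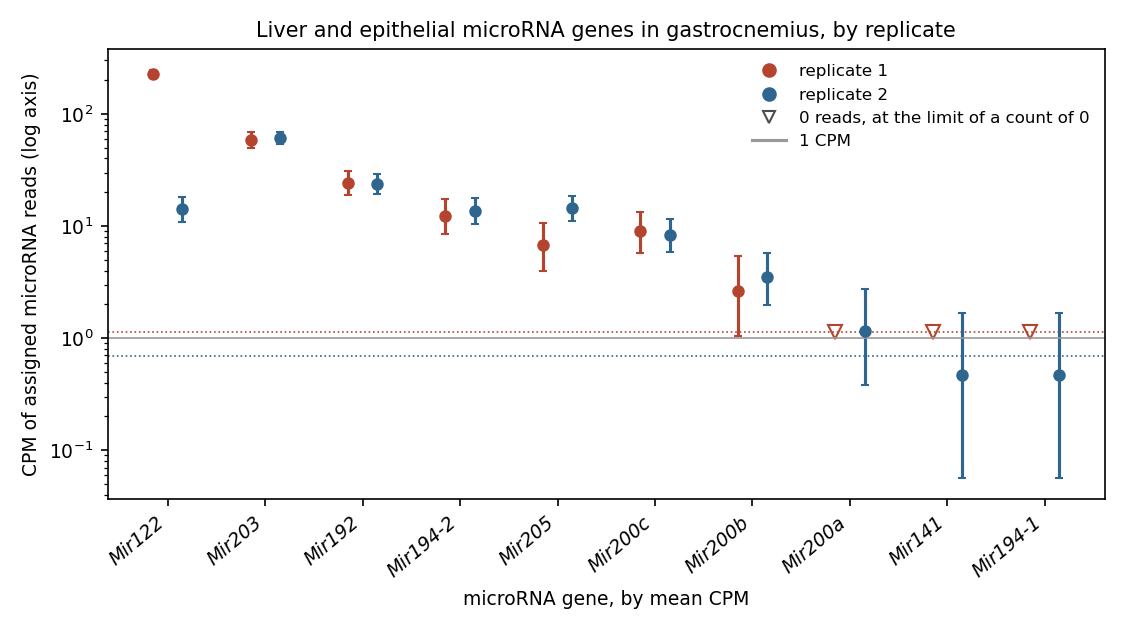
CPM (log axis) of the 10 genes in replicate 1 and replicate 2, as points with 95% counting intervals; open triangles mark 0 reads at the limit of a count of 0, dotted lines show that limit in each library and the grey line 1 CPM. Mir122 stands at 229 CPM in replicate 1 and 14.2 CPM in replicate 2, while most other members lie at like levels in both.

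Mir122, the hepatocyte gene, was the member farthest apart between the replicates. It had 612 reads in replicate 1, at 229 CPM (95% interval 211 to 248), and 61 reads in replicate 2, at 14.2 CPM (10.9 to 18.3). Replicate 1 was 16.1-fold higher (95% counting interval 12.4 to 21.3), and the intervals of the libraries lay far apart. Mir122 held rank 129 of 2202 genes in replicate 1 and rank 251 in replicate 2. Because Mir122 was chosen for this difference, its ratio is a description, and with a single library on each side it compares libraries rather than animals.

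The gut, liver and kidney genes showed no difference between the libraries beyond counting error. Mir192 had 65 reads in replicate 1 and 102 in replicate 2, which is 24.3 CPM (95% interval 18.8 to 31.0) and 23.8 CPM (19.4 to 28.8). It averaged 24.0 ± 0.394 CPM (SD, n = 2), and replicate 1 over replicate 2 gave a ratio of 1.02 (0.738 to 1.41). Mir194-2 had 33 and 59 reads, or 12.3 CPM (8.50 to 17.3) in replicate 1 and 13.7 CPM (10.5 to 17.7) in replicate 2. Its ratio was 0.90 (0.568 to 1.40), so no difference was detectable at this depth. Mir194-1, with the identical mature sequence, had 0 reads in replicate 1 and 2 reads in replicate 2, below the limit of a count of 0 in both.

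The proportion between the neighbours Mir192 and Mir194-2 had overlapping intervals in the libraries. There were 1.97 Mir192 reads per Mir194-2 read in replicate 1 (95% interval 1.28 to 3.09) and 1.73 in replicate 2 (1.24 to 2.42). Since the Mir194-2 count leaves out reads shared with Mir194-1, these proportions are upper bounds. There were 9.42 Mir122 reads per Mir192 read in replicate 1 (7.28 to 12.4) and 0.598 in replicate 2 (0.428 to 0.829). With Mir192 at like CPM in both, this restates the Mir122 difference. Mir215, the neighbour of Mir194-1 with the seed of miR-192, had 5 reads in replicate 1 and 1 read in replicate 2, a ratio of 8.03 whose interval (0.899 to 380) included 1.

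Of the skin genes, Mir203 was by mean CPM the highest member after Mir122 and did not differ detectably between the libraries, whereas Mir205 did. Mir203 had 157 reads in replicate 1 and 261 in replicate 2, which is 58.7 CPM (95% interval 49.9 to 68.7) and 60.8 CPM (53.7 to 68.7). It averaged 59.8 ± 1.46 CPM (SD, n = 2), and its ratio between replicate 1 and replicate 2 was 0.97 (0.787 to 1.18). Mir205 had 18 and 62 reads, or 6.74 CPM (3.99 to 10.6) in replicate 1 and 14.4 CPM (11.1 to 18.5) in replicate 2. It was 2.14-fold higher in replicate 2 (1.25 to 3.85), and the intervals of its levels did not overlap. There were 8.72 Mir203 reads per Mir205 read in replicate 1 (5.34 to 15.1) and 4.21 in replicate 2 (3.18 to 5.65), and these intervals overlapped. Mir31, a keratinocyte gene that other tissues also express, stood at 10.9 CPM in replicate 1 and 14.2 CPM in replicate 2, with a ratio of 0.76 (0.473 to 1.21).

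The miR-200 genes were low in both libraries, and a single gene, Mir200c, led them. Mir200c had 24 reads in replicate 1 and 36 in replicate 2, at 8.98 CPM (95% interval 5.75 to 13.4) and 8.39 CPM (5.87 to 11.6). Mir200b had 7 and 15 reads, at 2.62 CPM (1.05 to 5.40) in replicate 1 and 3.49 CPM (1.96 to 5.76) in replicate 2. Neither differed beyond counting error, with ratios of replicate 1 over replicate 2 of 1.07 (0.611 to 1.84) for Mir200c and 0.75 (0.259 to 1.95) for Mir200b. Mir200a had 0 reads in replicate 1 and 5 in replicate 2, at 1.16 CPM (0.378 to 2.72), an interval that includes the limit of 1.12 CPM for replicate 1. Mir141 had 0 reads in replicate 1 and 2 in replicate 2, too few to give a level.

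The members of the AACACUG seed group were therefore nearly without reads, whereas those of the AAUACUG group had most of the family's. Mir200a and Mir141 together had 0 reads in replicate 1 and 7 in replicate 2. Mir200b, Mir200c and Mir429 together had 34 and 70 reads, or 12.7 CPM in replicate 1 and 16.3 CPM in replicate 2. Within a locus the genes were also unequal. For Mir200c over Mir141 the ratio was above 6.02 in replicate 1, the lower limit of the 95% interval with no Mir141 read, and 18.0 in replicate 2 (4.63 to 154). For Mir200b over Mir200a the lower limit was 1.44 in replicate 1, and the ratio was 3.00 in replicate 2 (1.04 to 10.6). Mir429, of the same locus as Mir200b, had 3 reads in replicate 1 and 19 in replicate 2, with a ratio of 0.25 (0.0481 to 0.861).

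In replicate 1 the order of levels was Mir122, Mir203, Mir192, Mir194-2, Mir200c, Mir205 and Mir200b. Mir194-2 is placed in both libraries by its counted reads, which are a lower bound. The intervals of neighbours did not overlap from Mir122 down to Mir194-2, and overlapped for each neighbouring pair from there on. In replicate 2 the order was Mir203, Mir192, Mir205, Mir122, Mir194-2, Mir200c, Mir200b and Mir200a. There Mir205, Mir122 and Mir194-2 could not be ordered within their intervals, while Mir203 and Mir192 stood above them. The pairs Mir194-2 and Mir200c, and Mir200b and Mir200a, also overlapped, whereas Mir200c stood above Mir200b. Without Mir122 the leading genes, Mir203 and Mir192, kept the same order in both libraries.

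The makeup of the members' reads follows from these levels. Mir122 made up 66.8% of them in replicate 1 (95% interval 63.7 to 69.9) and 10.1% in replicate 2 (7.80 to 12.8). Mir203 made up 17.1% (14.8 to 19.7) in replicate 1 and 43.1% (39.2 to 47.2) in replicate 2, although its CPM was 58.7 and 60.8. The 9 members without Mir122 had 304 reads in replicate 1 and 544 in replicate 2, or 114 CPM and 127 CPM. Their summed ratio of replicate 1 over replicate 2 was 0.90 (0.777 to 1.03), with an interval that included 1. With all reads of the library as the total it was 0.85 (0.734 to 0.977), which excluded 1.

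**Figure D2:**
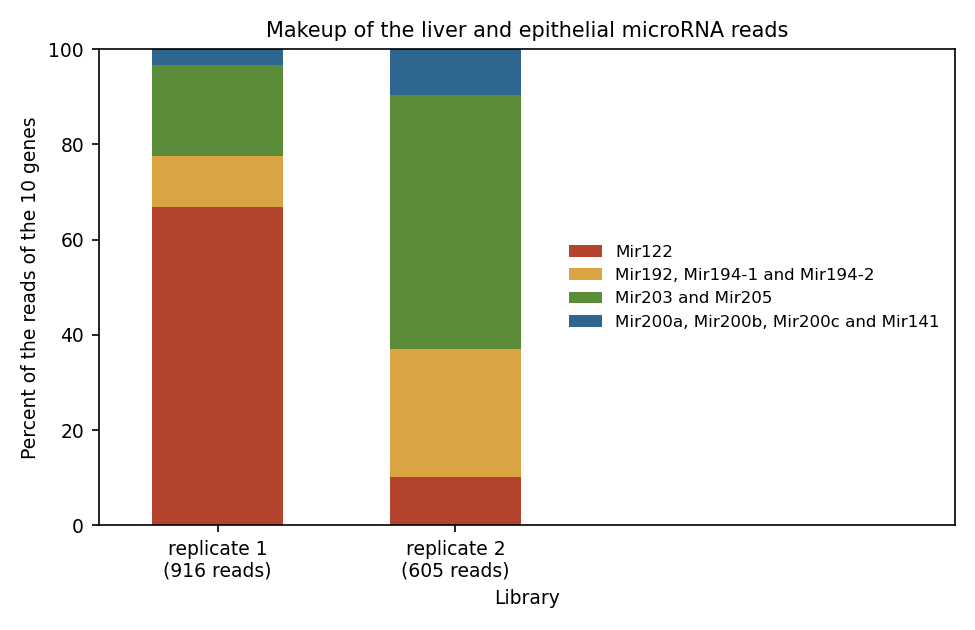
Percent of the reads of the 10 genes taken by each group of members in replicate 1 (916 reads) and replicate 2 (605 reads), as stacked bars from 0. Mir122 takes 66.8% in replicate 1 and 10.1% in replicate 2; Mir203 and Mir205 together take 19.1% and 53.4%.

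The ratios of the members were set beside those of all genes. At a mean of 10 CPM or more 260 genes passed, 5 of the 10 members among them, and Mir205 passed through its level in replicate 2. The counting interval lay above 1 for 25.8% of the 260 genes and for 1 of the 5 members, Mir122. It lay below 1 for 33.1% of the genes and for 1 of the 5, Mir205. A difference of more than 2-fold was found in 1.54% of genes toward replicate 1 and in 2.31% toward replicate 2, again with Mir122 and Mir205 among them. Since the members were chosen with these ratios known, nothing is read from their counts. The median ratio of the 260 genes was 0.98, and 95% of them lay between 0.510 and 1.44. Mir122 ranked first of 260 from the top and Mir205 rank 6 from the bottom, while Mir192, Mir203 and Mir194-2 lay inside that range.

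**Figure D3:**
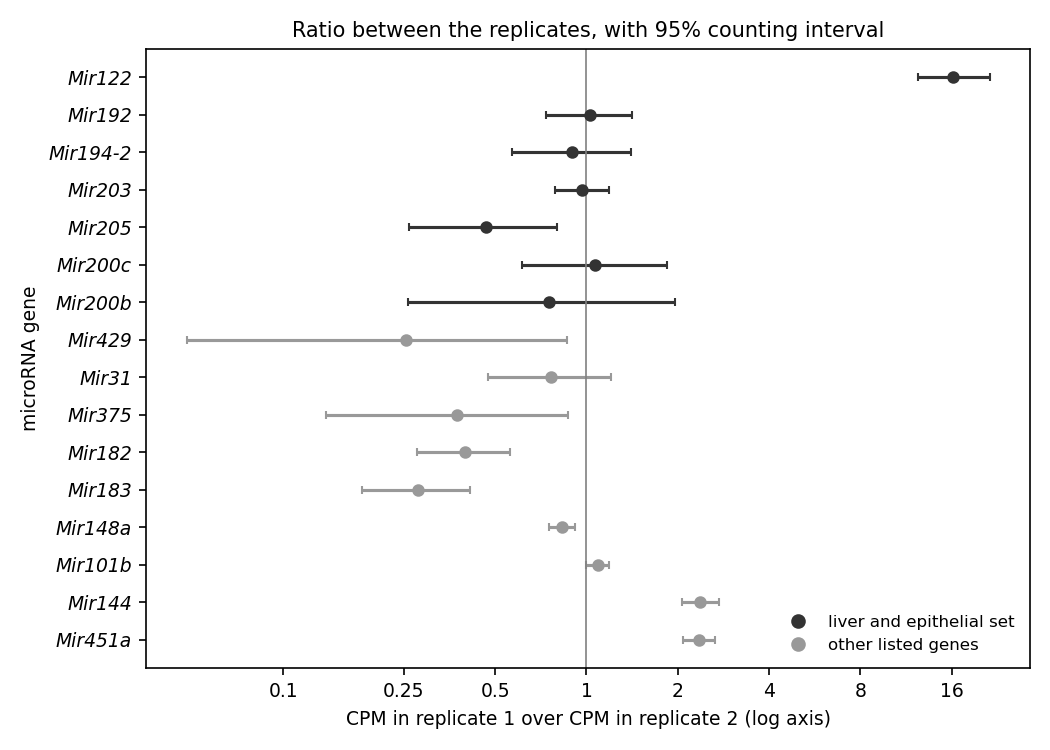
Ratio of CPM in replicate 1 over CPM in replicate 2 (log axis) with 95% counting intervals, for members with reads in both libraries (dark points) and other listed genes (grey points). Mir122 stands at 16.1 and the erythroid genes Mir144 and Mir451a near 2.4. The intervals of Mir205, Mir148a, Mir182, Mir183, Mir375 and Mir429 lie wholly below 1.

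Among genes averaging 10 CPM or more, the nearest to Mir122 in this ratio, over 2 libraries, were Snord43, Mir144 and Mir451a, at log2 ratios of 1.61, 1.25 and 1.23, against 4.01 for Mir122. Snord43, which bears the name of a small nucleolar RNA and is annotated as a microRNA gene in the table's annotation, stood at 115 CPM in replicate 1 and 37.7 CPM in replicate 2. The erythroid pair, known from red cell precursors, had 186 CPM (Mir144) and 251 CPM (Mir451a) in replicate 1, against 78.3 CPM and 107 CPM in replicate 2. Both genes of the erythroid list were higher in the library with more Mir122, at a summed ratio of 2.36 (2.15 to 2.59), where 25.8% of genes averaging 10 CPM or more had an interval above 1. They lie 99 bases apart at 1 locus, so they are not separate observations. Mir486, in an intron of Ank1, was listed with the muscle genes but is also grouped with erythroid microRNAs. Its ratio was 1.20 (1.12 to 1.27). There were 1.23 Mir122 reads per Mir144 read in replicate 1 (95% interval 1.09 to 1.39) and 0.182 in replicate 2 (0.136 to 0.239). The part of blood in the Mir122 difference was not tested.

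Other genes that liver expresses, most of them also known from other tissues, were listed and measured alongside. Mir148a, abundant in liver and in other tissues, stood at 218 CPM in replicate 1 and 263 CPM in replicate 2, and Mir101b had 322 CPM and 295 CPM. Mir455, of a Col27a1 intron, stood at 657 CPM in replicate 1 and 735 CPM in replicate 2. It held 1756 of the list's 3453 reads in replicate 1 and 3155 of 5940 in replicate 2. Mir193a had 89.1 CPM and 83.6 CPM, and Mir33, of the Srebf2 intron, had 2.62 CPM and 6.29 CPM. Mir365-1 had 8 reads in replicate 1 and 4 in replicate 2, a ratio of 3.21 whose interval (0.861 to 14.6) included 1. Mir802, of liver, kidney and pancreas, had 0 reads in either library, which allows up to 1.12 CPM and 0.699 CPM. In this list of 7 genes no interval lay above 1 and 3 lay below it. Of the 7, 6 averaged at least 1 CPM, and of all genes at that mean 18.2% had an interval above 1 and 24.7% below. The list holds Mir365-1 but not Mir365-2, which averaged 6.35 CPM at a log2 ratio of 1.27, higher in replicate 1. The counts of intervals therefore hold for the listed genes only.

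Of 7 listed epithelial genes outside the set, 4 were higher in replicate 2 beyond counting error, namely Mir429, Mir375, Mir182 and Mir183, and none in replicate 1. With 6 of the 7 averaging at least 1 CPM, this stands beside the 24.7% of all genes at that mean. Mir183 and Mir182, of 1 cluster known from sensory organs and epithelia, had 11.2 CPM and 15.7 CPM in replicate 1, against 40.3 CPM and 39.6 CPM in replicate 2. Mir375, of endocrine and mucosal cells, stood at 2.62 CPM in replicate 1 and 6.99 CPM in replicate 2. Mir96, the remaining gene of the Mir183 cluster, had 2 reads in each library. The summed list was 2.41-fold higher in replicate 2 (1.96 to 2.97). The Mir183 cluster held 74 of its 118 reads in replicate 1 and 345 of 456 in replicate 2, so the sum rests mostly on 1 locus. Mir182 and Mir183 are therefore not separate observations. The pancreas list (Mir375, Mir216a, Mir216b, Mir217 and Mir802) had 32 reads in replicate 1 and 83 in replicate 2, or 12.0 CPM and 19.3 CPM, a summed ratio of 0.62 (0.398 to 0.941). Mir375 held 7 of these reads in replicate 1 and 30 in replicate 2. It is also in the epithelial list, so the pancreas sum partly repeats that result. Mir217, of acinar cells, stood at 7.48 CPM in replicate 1 and 10.3 CPM in replicate 2, with a ratio of 0.73 (0.408 to 1.26).

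**Figure D4:**
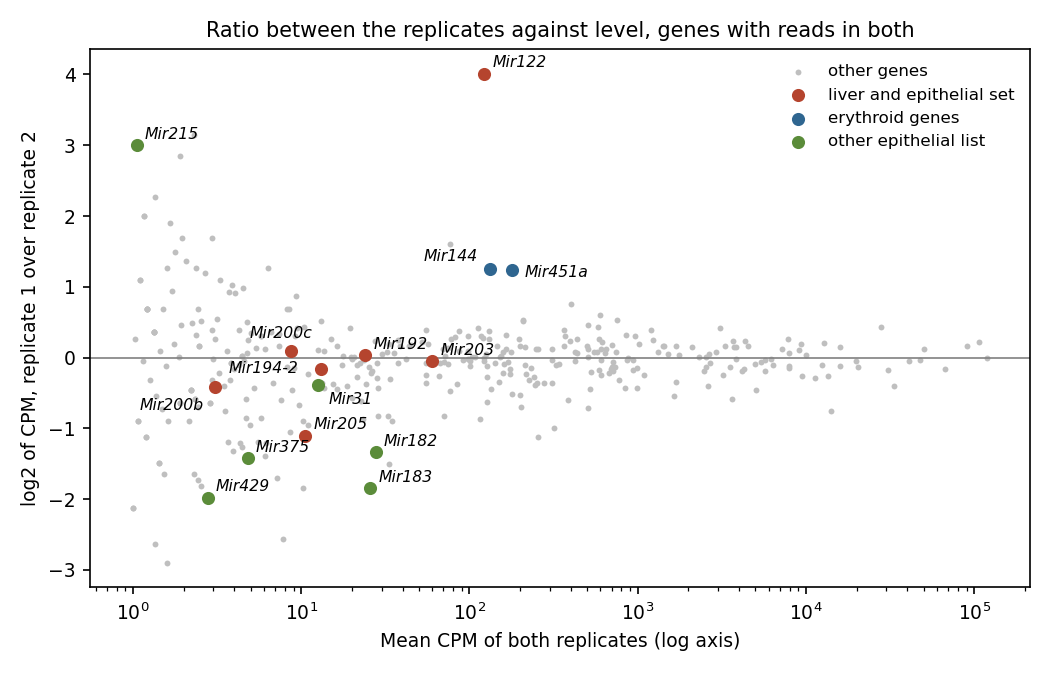
log2 ratio of CPM in replicate 1 over CPM in replicate 2 against mean CPM (log axis) for 395 genes that averaged at least 1 CPM and had reads in both libraries, with members, erythroid genes and the other listed epithelial genes in colour. Mir122 (4.01) lies above all other plotted genes, including those at the lowest levels, and Mir192, Mir203 and Mir200c lie near 0.

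Summed by role, the ratios of replicate 1 over replicate 2 were 16.1 for Mir122, 0.97 (0.744 to 1.25) for Mir192 with both Mir194 genes, 0.87 (0.720 to 1.05) for Mir203 with Mir205, and 0.86 (0.536 to 1.35) for the miR-200 genes. The intervals of the last 3 overlapped one another and included 1. The tissue source of these reads was not tested.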

How the data were processed

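The authors deposited 1 file of raw counts of reads over microRNA genes for each library, on mm10 with GENCODE M21 per the file headers. No aligner or counter is named: not given in the sources used here. Each file holds 3 count columns, read from their order as without regard to strand, same strand and opposite strand. The same-strand column was used. Totals leave out the 4 lines that name no gene (66.6% of replicate 1, 64.6% of replicate 2). All 2202 gene IDs matched GENCODE M21. Shares have exact binomial intervals, and ratios of counts have intervals derived from them. These were tested on simulated counts that held counting error only, which cannot show how they cover the spread between libraries. The labels name no molecular identifiers. With 1 group there was no test and no p-value. TMM factors (edgeR 4.0.16) and DESeq2 1.42.0 size factors, run in R 4.3.3, served as alternatives; the rest used Python 3.11.15, numpy 2.4.6, pandas 2.3.3 and scipy 1.17.1. Named genes were the 10 members, listed genes, the 3 genes nearest Mir122 in ratio, Mir365-2 beside its listed partner, and Mirlet7b for its opposite-strand reads. Members and lists were chosen with earlier results of these data known. Listed Mir122b and Mir203b had no gene of that name among the 2202 counted.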

Additional observations from a re-analysis of the deposited data

Results flagged for a closer look

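Mir122 had 6 reads on the strand opposite its gene in replicate 2 and 2 in replicate 1, in a column that the levels do not use and with no gene annotated there. The 6 reads lie above the 3 reads taken as the limit of a count of 0. They were 8.96% of the hairpin's reads in replicate 2 (95% interval 3.36 to 18.5), against 0.326% (0.0395 to 1.17) in replicate 1. With 61 same-strand reads in replicate 2 and 612 in replicate 1, these percents mostly restate the Mir122 difference. Over the 2138 genes with no microRNA gene opposite, opposite-strand reads numbered 35 in replicate 1 and 36 in replicate 2, of which the 10 members held 5 and 11. Mir200a had 3 of them in replicate 2, beside 5 reads on its own strand, and Mir203 had 3 in replicate 1 and 1 in replicate 2. Outside the members, Mirlet7b also had 6 opposite-strand reads in replicate 2, beside 65020 on its own strand. The source of these reads was not tested.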

How the results depend on the processing

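The summed share of the members moved with the total used. It was 0.00822% with all reads of the library as the total and 0.0632% without the 10 most abundant genes, which follows from the size of those totals, and 0.0330% in the column counted without regard to strand. Without Mir122 it was 0.0120%. The replicates alone gave 0.0141% and 0.0343%, and 8 and 7 members at 1 CPM. Under the other thresholds and totals 6 or 7 members were detected. The Mir122 ratio stayed between 15.1 and 16.8 under 5 alternatives, TMM (16.4) and DESeq2 size factors (16.3) included. The summed ratio of the other 9 members ranged from 0.83 without Mir203 to 0.95 without Mir205, both chosen after seeing the data, and its interval excluded 1 only with all reads as the total. No paired analysis was possible because there is 1 group. Leaving out a replicate gives no ratio. Depth limits Mir200a, Mir141 and Mir215, each with at most 5 reads in a library. Mir194-1 is limited also by the 22 bases it shares with Mir194-2, since reads within them align to both genes. Members with 0 reads cannot be called absent.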
